A study of Mus musculus with 17 samples.

Results

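The comparison set 6 brainstem libraries labelled locus coeruleus from male C57BL/6 mice given VB-127 against 6 from untreated mice, which are 12 of the 17 libraries of the series and were taken by their labels. VB-127 is labelled a derivative of vindeburnol. It was given at 20 mg/kg in water by oral gavage once daily for 5 days, and tissue was collected 24 hours after treatment. The remaining 5 libraries came from mice given the parent compound at the same dose and schedule. No group received gavage without a compound, so an effect of the compound and an effect of the gavage cannot be told apart here. Nothing in the labels ties a library to its own animal, and p-values here measure only the spread between libraries, which may be technical.

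The locus coeruleus is a small pontine nucleus that supplies most of the noradrenaline of the forebrain. Its neurons make noradrenaline from tyrosine through tyrosine hydroxylase (Th) and dopamine beta-hydroxylase (Dbh), and take it back up through the transporter Slc6a2. Vindeburnol is known for raising tyrosine hydroxylase in this nucleus of the rat, and the comparison asks what its derivative does to the transcriptome of the same tissue.

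Expression was read as TPM, a length-adjusted share of the library that carries no read depth, which was deposited for 78298 genes. Testing was limited to the 16153 genes at 1 TPM or more in 5 or more libraries. Differences are on the log2(TPM + 1) scale, VB-127 minus untreated, from limma fitted to all 17 libraries. A gene was called at a Benjamini-Hochberg adjusted p under 0.05. Since TPM is a share, 1 very abundant RNA can lower all others. Each result was therefore also computed after dividing each library by its median ratio to the average library, here called median-ratio scaling.

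The noradrenergic label was checked against its markers first. Of 14 noradrenergic markers, 10 passed the filter. Slc6a2 was among those that did not pass it. Dbh was listed at 0 in VB-127 replicates 1 and 4 and did not exceed 2.36 TPM in any VB-127 library. In the untreated group it stood at 18.9 TPM in replicate 1 and 12.3 TPM in replicate 6, and between 0.290 and 2.57 TPM in the other 4. Slc6a2, the noradrenaline transporter, was likewise at 8.94 and 4.15 TPM in untreated replicates 1 and 6 and at most 0.929 TPM in the other 10 libraries. Th, which dopamine neurons also make, ranged from 33.3 to 154 TPM with VB-127 (median 77.4) and from 17.8 to 117 TPM without it (median 72.5). The dopamine transporter Slc6a3, a marker of midbrain dopamine neurons, ranged from 17.4 to 124 TPM with VB-127 and from 1.04 TPM (untreated replicate 1) to 73.8 TPM in the untreated group. Tph2, the serotonin-synthesis enzyme of the raphe, was at 1.078 TPM in VB-127 replicate 1 and between 18.1 and 129 TPM in the other 11 libraries. Most of these libraries thus hold little of the defining noradrenergic transcripts, and libraries of the same group differ in which aminergic markers they hold. In bulk tissue, fewer cells of a type and less RNA per cell cannot be told apart.

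Across all genes, 1 gene was called, in both scalings: the noncoding RNA Gm28119, which was higher with VB-127 (percent called 0.00619, 1 of 16153 genes). At an unadjusted p under 0.05 the TPM fit held 1562 genes higher (9.67%) and 86 genes lower (0.532%), 10.2% in either direction. Median-ratio scaling gave 629 genes higher (3.89%) and 569 lower (3.52%), 7.42% in either direction, from the same libraries. The median gene stood 0.11 above untreated on the TPM scale and 0.01 above it after scaling, both log2. Leaving out 1 library at a time took the TPM median from 0.065 (without untreated replicate 4) to 0.15 (without VB-127 replicate 2). On the TPM scale 79.4% of tested genes had a difference above 0, against 52.4% after scaling. All 629 genes higher after scaling were among those higher at TPM, and all 86 genes lower at TPM were among those lower after scaling. The scaling therefore moved the balance of directions, from 94.8% higher to 52.5% higher among genes under the unadjusted threshold, without adding a called gene.

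On the log2(TPM + 1) scale, the size of change that these libraries leave room for was small for most genes. A fold here is a fold of TPM + 1, which at low levels is smaller than the fold of TPM itself. Of the tested genes, 821 averaged under 1 TPM and 3009 from 1 to 3 TPM. The limma 95% interval of the difference lay within 2-fold for 15243 genes (94.4%) at TPM and for 15370 (95.2%) after scaling. It lay within 1.5-fold for 11542 (71.5%) and 12764 (79%). The interval lay wholly beyond 1.5-fold for 6 genes in each scaling (0.0371%), on the side of higher levels for 4 of them and lower for 2. Named after their values were seen, these were Gm28119, Lcn2, Gm49376, Gm55043 and Rn7s1 in both scalings, with Gm13563 at TPM and Gm23444 after scaling.

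The most abundant RNA of these libraries was Bc1, a short noncoding RNA made by RNA polymerase III in neurons and carried into dendrites, where it represses translation. It took 21.04% ± 4.41 of TPM in the VB-127 libraries (SD, n = 6; lowest 16.7%, median 20.2%, highest 28.8%). In the untreated libraries it took 24.5% ± 5.90 (n = 6; 17.5%, 23.3% and 35.3%). The groups overlapped, and the difference was within the spread (two-sided exact permutation test, p = 0.284, adjusted over 6 library measures 0.340). The difference of -3.49 percentage points was -1.34 without untreated replicate 4 and -5.04 without VB-127 replicate 2. Untreated replicate 4 had the highest share of the 12 libraries, and VB-127 replicate 2 the next. Its sequence is shown because this one RNA holds so much of each library, with capitals marking its internal run of 23 adenines. It lies on the plus strand at chr7:144914470-144914637 (GRCm38, GENCODE M21) and is 168 bases long. Of its 138 different stretches of 31 bases, 56 also occur in the same strand of transcripts of other genes. What part reads from those genes have in its share was not tested.
Bc1: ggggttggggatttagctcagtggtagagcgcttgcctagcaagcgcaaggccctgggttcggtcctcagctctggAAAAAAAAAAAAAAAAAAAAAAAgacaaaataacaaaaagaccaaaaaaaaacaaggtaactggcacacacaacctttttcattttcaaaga

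**Figure D1:**
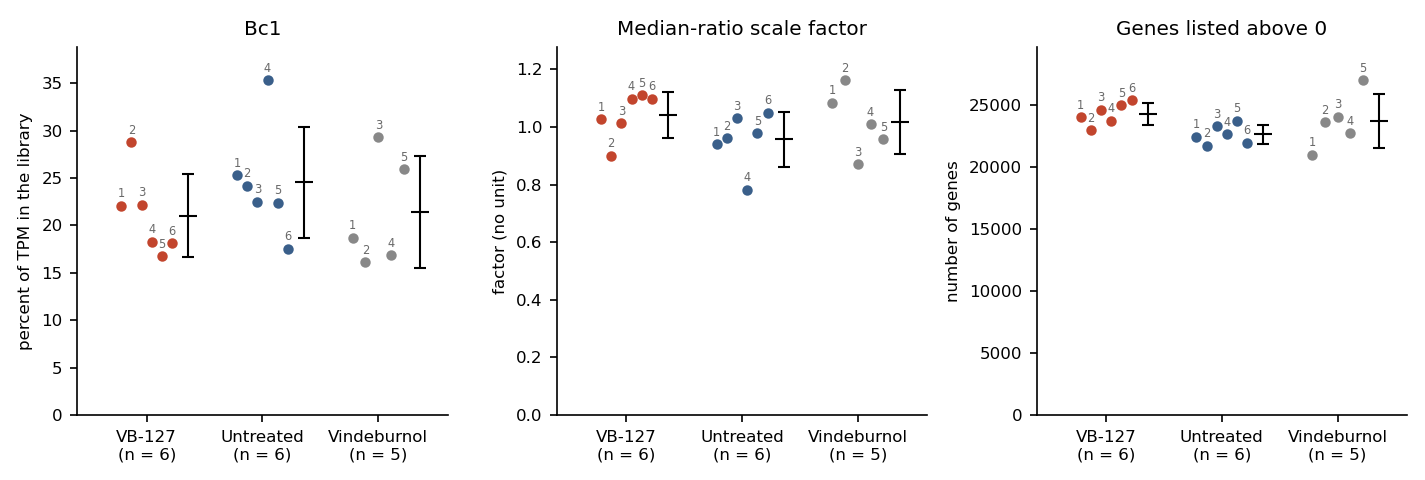
Each point is a library (replicate number above it), with the group mean and SD in black, for Bc1 as percent of TPM, the median-ratio scale factor (no unit) and the number of genes listed above 0, with the 5 vindeburnol libraries in grey. Untreated replicate 4 has the highest Bc1 share, 35.3%, and the lowest scale factor, 0.783, and the VB-127 and untreated groups overlap in all 3 measures.

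The scale factor, by which a library's TPM is divided, was 1.04 ± 0.0806 with VB-127 and 0.957 ± 0.0951 without it (exact permutation p = 0.132, adjusted 0.198, n = 6 each). More genes were listed above 0 in the VB-127 libraries, 24295 ± 884 against 22647 ± 779 (exact permutation p = 0.0130, adjusted 0.0779, n = 6 each). That measure rises with read depth, which is unknown for TPM, and its part in the results was not tested. The mitochondrially encoded share did not separate the groups, at 11.2% ± 1.39 and 11.5% ± 2.24 (exact permutation p = 0.794, adjusted 0.794, n = 6 each).

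The directions also depended on how abundant a gene was. After median-ratio scaling, 98 of the 1191 genes above 100 TPM on average were lower at an unadjusted p under 0.05 and 8 were higher, with a median log2 difference of -0.05. Of the 821 genes under 1 TPM, 17 were lower and 41 higher, with a median of 0.06. On the TPM scale every abundance class held more higher than lower genes, 151 against 10 above 100 TPM. Without untreated replicate 4, an alternative chosen after seeing the data, 83 were lower and 18 higher above 100 TPM after scaling.

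**Figure D2:**
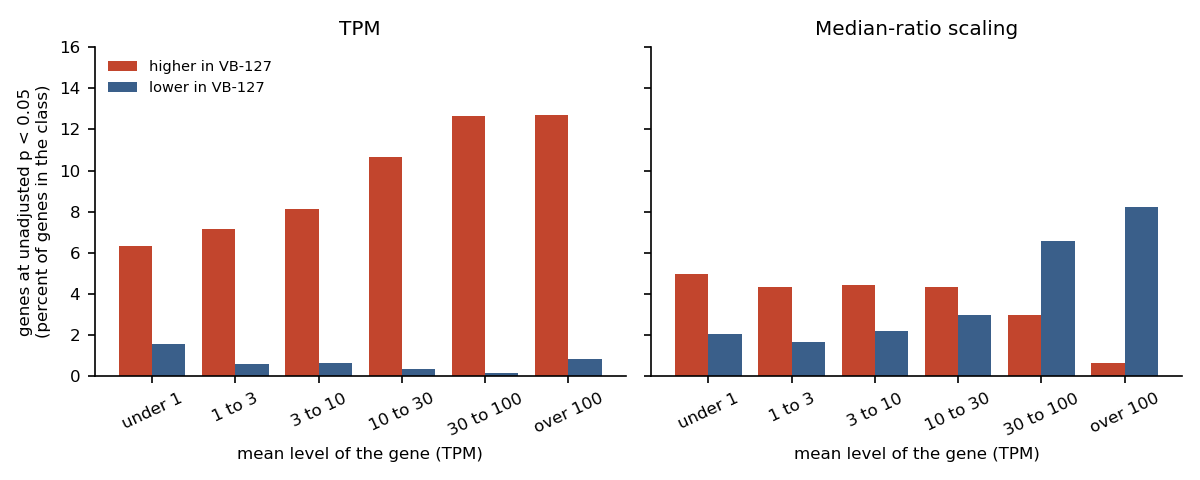
Bars give the percent of tested genes at an unadjusted limma p under 0.05 that were higher (red) or lower (blue) with VB-127, by the mean level of the gene in TPM, for TPM (left) and median-ratio scaling (right). Higher genes lead in every class at TPM, while after scaling lower genes lead above 30 TPM.

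Gm28119 is annotated as a sense-intronic RNA within Mir100hg, a long noncoding RNA that hosts a cluster of microRNAs. In the VB-127 libraries it read 2.91, 3.72, 3.38, 4.39, 4.75 and 4.57 TPM. In the untreated libraries it read 1.24, 0.261, 1.77, 0.675, 1.06 and 1.07 TPM. All 6 VB-127 values lay above all 6 untreated values, with the lowest VB-127 library above the highest untreated one, at both scalings. The mean was 3.95 ± 0.729 TPM against 1.01 ± 0.512 TPM (SD, n = 6 each). It rose by a log2 difference of 1.33 (95% interval 0.93 to 1.73; limma, adjusted p = 0.0157) at TPM and 1.25 (0.86 to 1.65; adjusted p = 0.0447) after scaling. Non-overlapping groups with VB-127 above were seen for 106 genes at TPM (0.656%) and 39 after scaling (0.241%). In either direction they were seen for 0.669% and 0.539% of genes.

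The call on Gm28119 stood close to the threshold, while its direction held in every alternative that tested it. The limma adjusted p ranged from 0.00710 to 0.117 over the alternatives at TPM and from 0.0205 to 0.199 after scaling. Leaving out 1 library of the 12 at a time ended the call in 5 of 12 fits at TPM (VB-127 replicates 4, 5 and 6, and untreated replicates 4 and 5) and in 11 of 12 fits after scaling, all but the fit without untreated replicate 3. In the 5 vindeburnol libraries Gm28119 read 1.51, 1.59, 2.73, 3.32 and 1.52 TPM, between the other groups and overlapping both.

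The transcript is shown because it carries the 1 call, with capitals marking a GA repeat of 34 bases. The 298-base transcript lies on the plus strand of chromosome 9 within chr9:41581908-41582283 (GRCm38, GENCODE M21; the deposited values were made on GRCm39), inside an intron of Mir100hg. It overlaps 0 exons of the host, with 505 bases to the exon before it and 3953 bases to the exon after it.
Gm28119: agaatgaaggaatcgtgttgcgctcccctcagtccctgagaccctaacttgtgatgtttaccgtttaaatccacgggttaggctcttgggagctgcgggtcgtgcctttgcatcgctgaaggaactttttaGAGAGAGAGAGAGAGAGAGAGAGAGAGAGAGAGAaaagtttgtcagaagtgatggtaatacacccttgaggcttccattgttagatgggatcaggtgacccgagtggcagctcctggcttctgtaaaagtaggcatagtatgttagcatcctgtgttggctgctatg

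Parts of the transcript are shared with many other genes. Of the 265 different stretches of 31 bases in the transcript, 56 also occur in the same strand of transcripts of other genes. Counting both strands, 57 do, in 1067 other genes. What part reads from those genes, or from unspliced host RNA, have in its level was not tested. Mir100hg itself read 46.2 ± 3.96 TPM with VB-127 and 40.4 ± 12.4 TPM without it (SD, n = 6 each), with overlapping groups. Its log2 difference was 0.24 at TPM (limma, adjusted p = 0.583) and 0.12 after scaling (adjusted p = 0.882). Gm28119 amounted to 8.60% ± 1.69 of the Mir100hg value in VB-127 libraries (6.58% to 10.8%) and 2.43% ± 0.928 in untreated libraries (0.978% to 3.56%). The 2 ranges do not overlap. The ratio is not independent of the Gm28119 values, which were already apart between the groups.

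**Figure D3:**
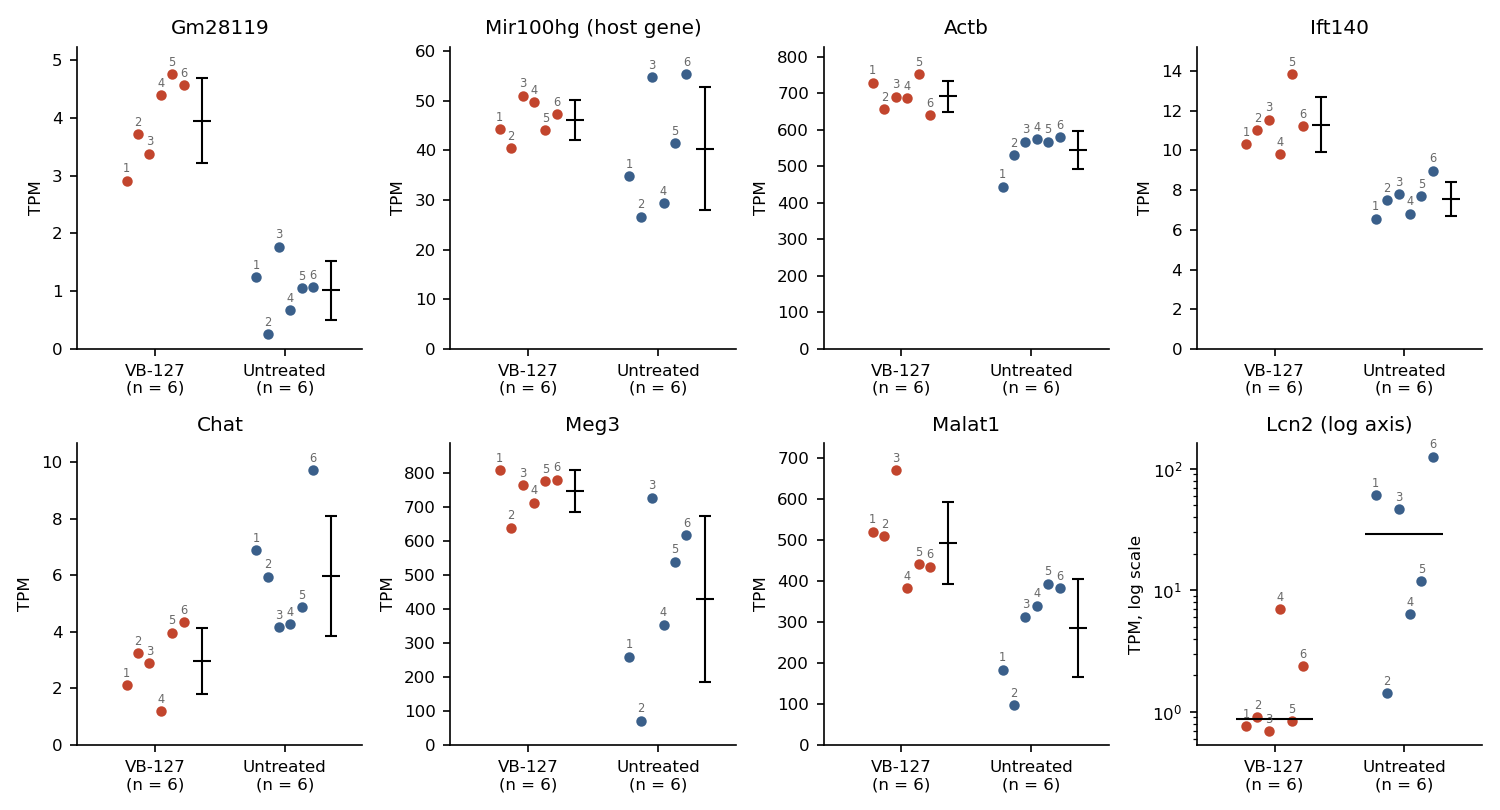
TPM in each VB-127 (red) and untreated (blue) library for 8 genes, with replicate numbers above the points and the mean and SD in black (for Lcn2, on a log axis, the line is the median). The groups do not overlap for Gm28119, Actb and Ift140, and untreated replicates 1 and 2 are the lowest for Meg3 and Malat1.

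Among the protein-coding genes with the smallest p on the TPM scale, none passed the adjusted threshold. Actb, the cytoplasmic actin of the cytoskeleton, came nearest. It ranged from 639 to 752 TPM with VB-127 (median 689) and from 444 to 580 TPM without it (median 568), and the groups did not overlap. Its log2 difference was 0.35 (limma, adjusted p = 0.171). After scaling it was 0.23 (adjusted p = 0.636) and the groups overlapped. The actin list of 16 genes, Actb included, gave a median of 0.07 at TPM and -0.05 after scaling. At an unadjusted p under 0.05, Actb, Actg1 and Cfl1 were higher at TPM and 0 genes lower, and after scaling Actb was higher and Actr2 and Tmsb4x lower. Among all genes 9.67% were higher and 0.532% lower at TPM, and 3.89% and 3.52% after scaling.

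Slc7a10, the alanine-serine-cysteine transporter of astrocytes that moves D-serine, ranged from 41.5 to 53.6 TPM with VB-127 and from 31.1 to 41.1 TPM without it, with a log2 difference of 0.44 at TPM and 0.32 after scaling. The groups were apart at TPM and overlapped after scaling. The same held for Adgrb2, a brain adhesion receptor (65.3 to 73.7 against 45.4 to 62.6 TPM, log2 difference 0.35 and 0.22), and Cacna1a, the pore subunit of P/Q-type calcium channels (31.8 to 36.5 against 21.3 to 31.1 TPM, 0.37 and 0.25). Dcakd, which encodes a protein with a dephospho-CoA kinase domain, was at 26.5 to 31.6 against 18.7 to 25.2 TPM. Gkn3, a gastrokine that marks arterial endothelium in mouse brain, was at 7.64 to 12.2 against 2.21 to 7.25 TPM. The lowest adjusted p among these 5 genes was 0.363 at TPM.

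Of the 16153 tested genes, 21 had the VB-127 libraries above every untreated library under both scalings, and 1 had them below under both. Ift140, a subunit of the retrograde complex that moves cargo down the cilium, was among the former, at 9.81 to 13.8 TPM (median 11.1) against 6.56 to 8.99 TPM (median 7.59). Its log2 difference was 0.52 at TPM (limma, adjusted p = 0.431) and 0.41 after scaling (adjusted p = 0.467). Phf21b, a PHD-finger chromatin protein, was another, at 2.40 to 6.84 against 0.914 to 2.17 TPM. Without any group difference, all VB-127 libraries come out highest in 1 of 924 arrangements. Over 16153 genes, such a separation alone therefore does not mark a gene as changed.

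Some genes were apart only after scaling, on the higher side. Ints1, a scaffold subunit of the Integrator complex, stood at 22.8 to 25.8 scaled TPM against 15.7 to 22.2. Crebbp, the acetyltransferase known as CBP, stood at 6.07 to 10.4 against 3.28 to 5.87 scaled TPM. Recql5, a DNA helicase, stood at 8.67 to 10.8 against 5.63 to 8.51 scaled TPM, and Vwa8, a mitochondrial ATPase, at 20.4 to 22.9 against 16.8 to 19.4. For these 4 genes the limma adjusted p after scaling was 0.459.

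On the lower side 48 genes had all VB-127 libraries below all untreated ones after scaling (0.297%), against 2 at TPM (0.0124%). Chat, choline acetyltransferase, which makes acetylcholine in motor and other cholinergic neurons, was among the 48. It read 1.20 to 4.34 TPM with VB-127 (median 3.08) and 4.16 to 9.71 TPM without it (median 5.42), which just overlap, and 1.09 to 3.95 against 4.04 to 9.25 after scaling. Its log2 difference was -0.83 at TPM (limma, adjusted p = 0.461) and -0.92 after scaling (adjusted p = 0.467), and without untreated replicates 1 and 6 it was -0.60 at TPM. Akip1, a protein that binds the catalytic subunit of protein kinase A, stood at 3.08 to 4.28 against 4.34 to 7.43 scaled TPM. Dnajb6, a chaperone, stood at 104 to 110 against 117 to 143, and Hsp90b1, the endoplasmic reticulum form of HSP90, at 164 to 187 against 202 to 246 scaled TPM. Gjb6, the astrocyte connexin 30, stood at 57.8 to 82.4 against 83.3 to 109, and Uchl5, a deubiquitinase of the proteasome, at 29.9 to 39.7 against 39.8 to 45.2. None of these 6 genes passed the adjusted threshold.

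Among the coding genes named here the largest difference was that of Lcn2, lipocalin 2, an iron-carrier-binding protein that astrocytes and neutrophils make during inflammation. It read 0.760, 0.904, 0.692, 7.00, 0.833 and 2.37 TPM with VB-127. In the untreated libraries it read 60.5, 1.43, 46.3, 6.35, 11.9 and 126 TPM. Untreated replicates 1, 3 and 6 were high, untreated replicate 2 lay inside the VB-127 range, and so did replicate 4. The log2 difference was -3.04 at TPM (95% interval -4.79 to -1.28; limma, adjusted p = 0.461) and -3.13 after scaling (adjusted p = 0.459). Lrg1, a leucine-rich glycoprotein of the acute phase, and S100a9, a calcium-binding protein of neutrophils, were also highest in untreated replicates 1, 3 and 6, at 4.94, 11.5 and 14.4 TPM and at 5.08, 10.4 and 15.52 TPM. The other 3 untreated libraries read at most 3.65 and 1.60 TPM, within or near the VB-127 ranges of 0.398 to 3.34 and 0.369 to 3.54 TPM. Of the 11 genes in the list of neutrophil and acute-phase markers 5 passed the filter, of which 0 were called. All 5 had values below 0, with Serpina3n nearly flat at -0.07 (TPM). In both scalings 3 were lower at an unadjusted p under 0.05 (Lcn2, S100a9 and Ccl12), where 0.532% and 3.52% of all genes were. The median of the 5 was -0.81 at TPM and -0.89 after scaling, and -0.54 at TPM without untreated replicates 1 and 6 and also without replicate 6 alone. Among the 6 untested members were Ngp, Camp, Saa3 and Il1b. Il1b had a higher mean with VB-127 (0.204 against 0.0431 TPM) and the other untested members a lower one.

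Noradrenergic and other transmitter lists showed no called member. Of the 10 tested noradrenergic genes 2 were lower at an unadjusted p under 0.05 at TPM (Dbh and Gal) and 0 higher, with a median of -0.08 against 0.11 for all genes. The list median was -0.0091 without untreated replicate 6 and -0.16 without VB-127 replicate 6. After scaling 3 were lower, with a median of -0.21 against 0.01. Among all genes 0.532% were lower at TPM and 3.52% after scaling. Gal, the peptide galanin, read 0.727 to 3.56 TPM with VB-127 and 1.99 to 7.67 TPM without it, with its highest values in untreated replicates 1 and 6. The log2 difference of Dbh was -1.28 at TPM (limma, adjusted p = 0.483) and -0.32 without these 2 libraries, and that of Gal was -0.76 (adjusted p = 0.468) and -0.39. Th differed by 0.31 (95% interval -0.63 to 1.26, adjusted p = 0.798), an interval that leaves room for a change beyond 2-fold upward. Without untreated replicate 1 its difference was -0.04.

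The serotonergic list of 8 genes held 0 genes under the unadjusted threshold, with a median of -0.11 at TPM and -0.20 after scaling. The TPM median was -0.020 without VB-127 replicate 1, the library with little Tph2, and -0.21 without VB-127 replicate 6. The cholinergic list of 5 tested genes held 1 lower member under that threshold, Chat, where 0.532% and 3.52% of all genes were lower. The list had a median of -0.35 at TPM and -0.45 after scaling. Its TPM median was -0.22 without untreated replicate 6 and -0.64 without untreated replicate 2. Of the 5 genes 1 had values above 0, Ache, at 0.18 at TPM and 0.05 after scaling (147 ± 12.9 against 131 ± 21.9 TPM, SD, n = 6 each). Slc5a7, the choline transporter, read 2.56 to 7.54 TPM against 3.18 to 18.9 TPM. The dopaminergic list of 13 genes, the GABA and glycine list of 8 and the glutamatergic list of 6 had medians of 0.12, 0.14 and 0.14 at TPM and of 0.01, 0.01 and 0.02 after scaling. At TPM the dopaminergic median turned to -0.088 without untreated replicate 1, and without untreated replicate 4 the GABA and glycine median was 0.039 and the glutamatergic one 0.0056. Grin1, the obligatory subunit of NMDA receptors, read 154 to 199 TPM with VB-127 and 116 to 171 TPM without it (log2 difference 0.28 at TPM, 0.16 after scaling; limma, adjusted p = 0.461 and 0.660). The adrenergic receptor list (7 tested genes) held 0 genes under the unadjusted threshold in both scalings.

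**Figure D4:**
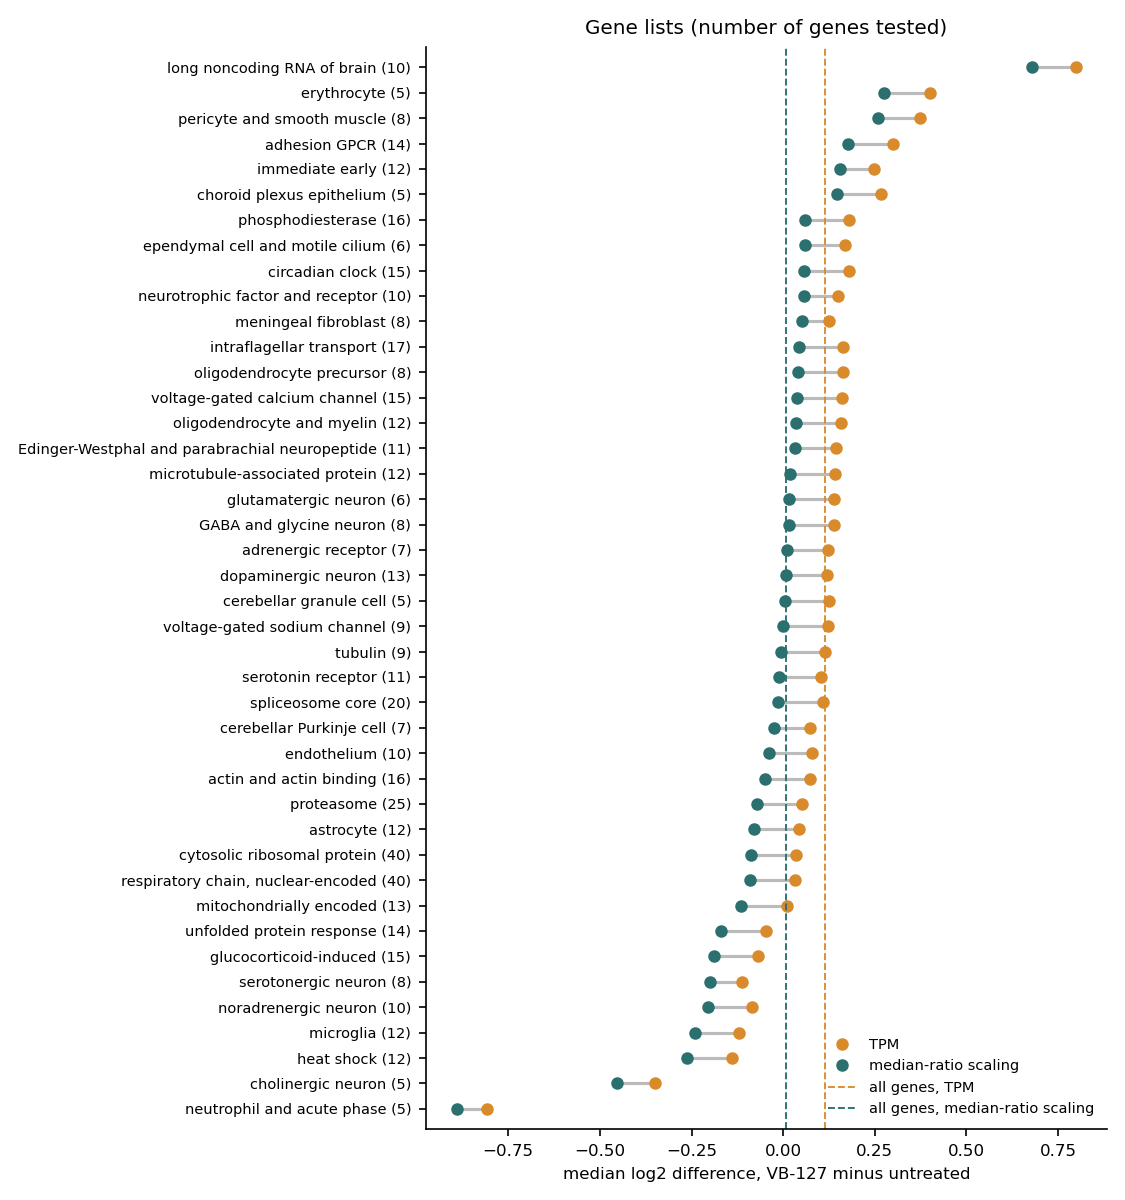
For each gene list (number of tested genes in brackets), the median log2 difference, VB-127 minus untreated, at TPM (orange) and after median-ratio scaling (green), with dashed lines at the medians of all genes, 0.11 and 0.01. The noncoding RNA list lies farthest above and the neutrophil and acute-phase list farthest below.

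Chaperone and stress lists had medians below that of all genes in both scalings, and among all genes 0.532% were lower at an unadjusted p under 0.05 at TPM and 3.52% after scaling. The heat shock list of 12 genes held 2 lower and 0 higher at an unadjusted p under 0.05 at TPM, with a median of -0.14, and 5 lower and 0 higher after scaling, with a median of -0.26. Hspe1, the mitochondrial co-chaperonin, read 127.3 to 161 TPM with VB-127 and 148 to 169 TPM without it (log2 difference -0.15 at TPM, -0.27 after scaling). Without untreated replicates 1 and 6 the heat shock median at TPM was -0.0038, and without replicate 6 alone -0.057. Of the 14 genes of the unfolded protein response 1 was lower at TPM and 6 after scaling, with medians of -0.05 and -0.17, and the TPM median turned to 0.0019 without untreated replicates 1 and 6 and was -0.012 without untreated replicate 5. Sdf2l1, an endoplasmic reticulum chaperone cofactor, read 16.2 to 22.0 against 20.6 to 31.5 TPM, with a log2 difference of -0.36 at TPM (limma, adjusted p = 0.470) and -0.48 after scaling (adjusted p = 0.459).

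Glucocorticoid-induced genes went in both directions at TPM, 1 higher and 3 lower of 15, with a median of -0.07, and 0 and 5 after scaling, with a median of -0.19. Of all genes 9.67% were higher and 0.532% lower at TPM, and 3.89% and 3.52% after scaling. Without untreated replicates 1 and 6 the TPM median of the list was 0.10, and without VB-127 replicate 5 it was 0.050, both on the other side of 0. Without untreated replicate 4 it was -0.14. The metallothioneins Mt1 and Mt2, which bind zinc and copper, were among the lower genes. Mt1 read 645 to 886 TPM with VB-127 and 773 to 1141 TPM without it, with a log2 difference of -0.27 at TPM and -0.40 after scaling (limma, adjusted p = 0.470 and 0.459).

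The clock, activity and adhesion receptor lists had medians above that of all genes, among which 9.67% were higher at an unadjusted p under 0.05 at TPM and 3.89% after scaling. Of 15 circadian clock genes 5 were higher at an unadjusted p under 0.05 at TPM and 1 after scaling, with medians of 0.18 and 0.06 and 0 lower. After scaling that count is near the share of all genes, and the TPM median was 0.096 without untreated replicate 4 and 0.28 without VB-127 replicate 2. That 1 gene was Per2, a repressor of the clock loop, which read 4.50 to 6.97 TPM with VB-127 and 2.91 to 4.88 TPM without it (log2 difference 0.41 and 0.31; limma, adjusted p = 0.461 and 0.544). The time of day of tissue collection is not given in the labels. Of 12 tested immediate early genes, which neuronal activity induces, Nr4a1, Npas4 and Ier2 were higher in both scalings and 0 lower, with medians of 0.25 and 0.15, the former 0.14 without untreated replicate 4. Nr4a1, a nuclear receptor, read 7.90 to 12.1 against 4.45 to 9.32 TPM.

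Adhesion G-protein-coupled receptors, which bind partners on neighbouring cells and at synapses, held 6 higher and 0 lower of 14 tested at TPM (median 0.30), and 4 higher and 0 lower after scaling (median 0.18), beside 9.67% and 3.89% higher among all genes. Celsr3, needed for axon tract formation, read 7.07 to 11.8 against 5.14 to 11.4 TPM. Calcium channel subunits gave 3 higher of 15 at TPM and 2 after scaling, among them Cacna1g, the T-type channel that drives burst firing, at 25.3 to 47.4 against 11.7 to 39.6 TPM. Untreated replicate 3 was the highest untreated library for Celsr3 and Cacna1g, and untreated replicate 4 the lowest.

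No marker of glia, blood or vessels was called. Of 12 microglial genes 1 was lower at TPM and 5 after scaling, among them the complement subunits C1qa, C1qb and C1qc, with medians of -0.12 and -0.24 and 0 higher, where 0.532% and 3.52% of all genes were lower. Without untreated replicate 6 the TPM median was -0.042. At TPM 4 of the 12 had values above 0, P2ry12 (0.32), Trem2 (0.16), Csf1r (0.10) and Cx3cr1 (0.00). After scaling 2 did, P2ry12 and Trem2. Ly86, a partner of a Toll-like receptor relative, read 9.46 to 12.7 TPM with VB-127 and 10.5 to 21.8 TPM without it. Gfap, the astrocyte filament, read 84.4 to 160 against 113 to 207 TPM (log2 difference -0.38 and -0.50; limma, adjusted p = 0.470 and 0.544), while the astrocyte list of 12 genes had medians of 0.04 and -0.08, the former -0.023 without untreated replicate 4. Myelin genes gave 4 higher and 0 lower of 12 at TPM, where 9.67% and 0.532% of all genes were, and 0 and 1 after scaling, where 3.89% and 3.52% were. Mbp, myelin basic protein, differed by 0.11 at TPM and -0.02 after scaling. All 8 pericyte and smooth muscle genes had values above 0 in both scalings, with a median of 0.37 at TPM and 0.26 after scaling, and 0 of them passed the unadjusted threshold. Without untreated replicates 1 and 2 the TPM median was -0.0069, and without replicate 2 alone 0.23. The 10 endothelium genes had medians of 0.08 at TPM and -0.04 after scaling, where 5 lay above 0 and 5 below. At TPM 0 of them passed the unadjusted threshold. After scaling 0 were higher and 2 lower (Mfsd2a and Ly6c1), where 3.89% and 3.52% of all genes were. The 5 erythrocyte genes, which track blood left in the tissue, were all above 0 in both scalings, with medians of 0.40 and 0.28. At an unadjusted p under 0.05, 2 were higher at TPM (Hba-a2 and Hbb-bs) and 0 after scaling, where 9.67% and 3.89% of all genes were. Hba-a2, an alpha globin, read 665 to 925 TPM with VB-127 and 354 to 860 TPM without it.

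Housekeeping lists moved with the scaling. The 40 ribosomal protein genes had a median of 0.04 at TPM, with 31 above 0, and of -0.09 after scaling, with 39 below 0, and 0 were under the unadjusted threshold in either. The 40 nuclear-encoded respiratory chain genes had medians of 0.03 and -0.09, with 4 lower and 0 higher after scaling, where 3.52% and 3.89% of all genes were. These genes averaged above 100 TPM, a class in which 8.23% of genes were lower and 0.672% higher after scaling. The proteasome (25 genes) and tubulin (9 genes) lists had medians of 0.05 and 0.12 at TPM and -0.07 and -0.01 after scaling. No direction is given for these 4 lists, since the sign of their median depends on the scaling.

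Long noncoding RNAs of brain formed the list with the highest median, 0.80 at TPM and 0.68 after scaling over 10 genes, with 4 higher and 0 lower at an unadjusted p under 0.05 in both, where 9.67% and 3.89% of all genes were higher. Without untreated replicate 2 the TPM median was 0.44. Meg3, an imprinted nuclear RNA of neurons, ranged from 639 to 807 TPM with VB-127 (median 770). The untreated libraries read 260, 71.8, 727, 354, 539 and 617 TPM. Malat1, an abundant RNA of nuclear speckles, ranged from 383 to 670 TPM with VB-127 (median 475) and read 184, 96.9, 313, 340, 393 and 383 TPM in the untreated libraries. Untreated replicate 2 was the lowest library for both, and untreated replicate 1 the next. The log2 differences at TPM were 1.12 and 0.92 (limma, adjusted p = 0.470 for both). Without untreated replicates 1 and 2 they were 0.46 and 0.45, and the list median was 0.24.

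The same 2 libraries were low in other nuclear RNAs. Miat, a long noncoding RNA of neurons, read 38.1 to 52.1 TPM with VB-127 and 18.7 and 6.99 TPM in untreated replicates 1 and 2, against 21.8 to 56.3 TPM in the other 4. Neat1, the scaffold of paraspeckles, read 83.3 to 149 TPM with VB-127, 30.9 and 13.0 TPM in these 2 libraries and 64.3 to 126 TPM in the other 4. A summed level was taken over all deposited genes annotated as sense-intronic, Gm28119 among them, or in the provisional class TEC, tested or not. It was 860 ± 55.1 scaled TPM with VB-127 and 746 ± 114 without it (SD, n = 6 each, exact permutation p = 0.0433, adjusted over all 9 library measures 0.180). Untreated replicates 1 and 2 were lowest here too, at 658 and 557 scaled TPM. Gm28119 was at 0.261 TPM, its lowest, in untreated replicate 2 and at 1.24 TPM, its second highest untreated value, in replicate 1. What part the nuclear RNA content of these libraries has in the differences was not tested.

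By gene class, TEC genes had the highest scaled median among classes of over 100 genes, 0.16 over 157 genes, with 20 higher and 2 lower at an unadjusted p under 0.05. Sense-intronic genes had a median of 0.11 over 29 genes, with 6 higher and 0 lower. Protein-coding genes had a median of 0.00 over 13516 genes, with 466 higher and 506 lower. Without untreated replicate 4 the TEC and sense-intronic medians were 0.14 and 0.08. Untreated replicates 1 and 2, the lowest in the summed level of these classes, were not left out for these medians. What part those libraries have in them was not tested.

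Among coding genes the scaled median ran with transcript length, from -0.07 under 1000 bases to 0.06 over 8000 bases, with 8 higher and 45 lower genes in the first class and 55 and 4 in the last. Without untreated replicate 4, an alternative chosen after seeing the data, the gradient was smaller, with medians from -0.02 to 0.01. No other library was left out for these classes. In that library the median of long transcripts minus that of short ones was -0.46 on the log2 scale, relative to the average library, the lowest of the 12. The groups did not differ in this length contrast beyond their spread (exact permutation p = 0.446, n = 6 each). The scaled median also ran with the GC content of the transcript, from -0.04 in the class of lowest GC (776 genes, 14 higher and 59 lower) to 0.04 in the class of highest GC (678 genes, 43 higher and 13 lower). At TPM 25 and 133 genes of these classes were higher. The groups did not differ in the contrast of GC-rich and GC-poor transcripts beyond their spread (0.062, exact permutation p = 0.442, n = 6 each), which was 0.11 without untreated replicate 4 and 0.022 without untreated replicate 1.

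**Figure D5:**
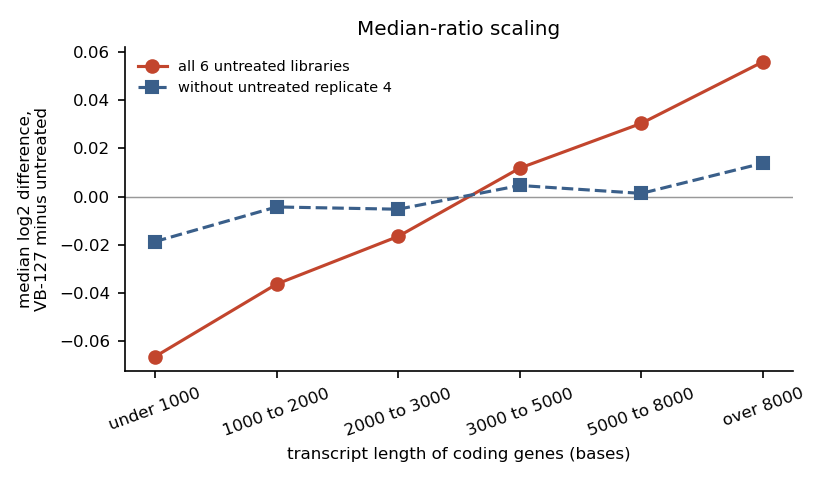
Median log2 difference after median-ratio scaling, VB-127 minus untreated, for coding genes by transcript length in bases, with all 6 untreated libraries (red circles) and without untreated replicate 4 (blue squares). The range of medians from -0.07 to 0.06 shrinks to -0.02 to 0.01 without that library, which was chosen after seeing the data.

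VB-127 was also set against its parent compound directly, the 1 pair of compounds that the design holds at the same dose and time. In limma 0 genes were called in either scaling, with smallest adjusted p-values of 0.208 at TPM and 0.420 after scaling. At an unadjusted p under 0.05 there were 546 genes (3.38%) at TPM, 402 higher (2.49%) and 144 lower (0.891%) with VB-127. After scaling there were 694 genes (4.3%), 382 higher (2.36%) and 312 lower (1.93%). The 95% interval of the difference lay within 2-fold of TPM + 1 for 94.7% and 94.8% of genes. That bounds most differences between the compounds on that scale but does not show that they act alike. Gm28119 differed by 0.69 at TPM (95% interval 0.27 to 1.11) and 0.65 after scaling (0.23 to 1.06), higher with VB-127 and not past the adjusted threshold. Mt1 and Mt2 were lower with VB-127 than with vindeburnol by values of -0.42 (-0.65 to -0.19) and -0.58 (-0.89 to -0.27) after scaling, at 781 ± 85.6 against 1018 ± 140 TPM and 486 ± 63.5 against 720 ± 172 TPM (SD, n = 6 and 5). Gkn3 was higher by 0.91 (0.35 to 1.47), at 9.41 ± 1.68 against 4.96 ± 3.10 TPM. The VB-127 libraries are the same in this comparison and the one against untreated tissue, so the 2 sets of values are not independent.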

How the data were processed

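The authors deposited TPM per gene for each library. Per the submitters' processing notes the tools were STAR and Salmon and the build GRCm39 (mm39); versions, and whether the directional NEBNext libraries were counted by strand, are not given in the sources used here. Libraries were made from poly(A) RNA, per the labels' protocols. Depth is unknown, so no interval that needs it is given.

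TPM was analysed as log2(TPM + 1) with limma 3.58.1 (R 4.3.3; trend and robust moderation) over 17 libraries with group as the only term, for genes at 1 TPM in at least 5 libraries. Median-ratio scaling used genes above 0 in all 17 libraries. Single library measures were compared by two-sided exact permutation tests over 924 arrangements, whose smallest p is 0.00216. The scripts were tested on simulated data.

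The members, the 42 gene lists, the named genes and the tests were chosen with earlier results of these data known, so no list or test is independent of them. Named genes were those called in either scaling, per scaling and direction the 8 with the smallest p and a mean of at least 2 TPM, per direction the 6 largest differences at an unadjusted p under 0.05 in both scalings, per list the 2 smallest p, 10 fixed genes and the 5 most abundant. Genes outside this rule were chosen after their values were seen. Gene classes and lengths came from GENCODE M21 (GRCm38), which matched 94.7% of tested genes. Alternatives were other scalings, pseudocounts, filters, sample sets, library weights, covariates, a replicate block and each library left out.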

Additional observations from a re-analysis of the deposited data

Results flagged for a closer look

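Single libraries that stood apart from the other 5 of their group by Dixon's test (gap over range above 0.625) were found in 11 of 162 groups of 6 tested, 6.79%, where chance flags about 1 in 20. In the VB-127 group, replicate 2 was lowest for Odf2 (28.9 TPM) and highest for Snrpe (82.6 TPM), and had the fewest genes at 1 TPM or more (15208). VB-127 replicate 4 was highest for Lcn2 (7.00 TPM), replicate 1 was lowest for Sdf2l1 (16.2 TPM), and replicate 3 was highest for Cacna1a (36.5 TPM). In the untreated group, replicate 1 was lowest for Actb (444 TPM) and replicate 6 was highest for Gfap (207 TPM). Untreated replicate 3 was highest for Cfap69 (5.94 TPM) and Celsr3 (11.4 TPM), and replicate 2 was highest for Rn7s1 (306 TPM). The causes were not tested.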

How the results depend on the processing

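Called genes at TPM, 1 with the main settings, numbered 0 with a pseudocount of 0.1, without a filter and with a filter of 5 TPM (where Gm28119 was not tested), 2 with 12 libraries only (adding Gm55043), 3 with library weights (adding Actb, adjusted p 0.0476, and Gm13563), 2 without untreated replicates 1 and 6 (adding Cln8, adjusted p 0.0440) and 0 without untreated replicates 1 and 2, a setting chosen after seeing the data. After median-ratio scaling the 1 call became 0 with pseudocounts of 0.1 and 0.5, without a filter, with 5 TPM, with dopaminergic and serotonergic covariates, and without untreated replicates 1 and 6 or 1 and 2, and 2 with 12 libraries only. Against vindeburnol the covariates gave 1 call (Npas3, -0.85). A replicate block gave 0 calls in both scalings (Gm28119 adjusted p 0.0797 and 0.180). Same-numbered libraries did not deviate together (correlations -0.20 to 0.09). That gives no sign of pairing by number, and whether same-numbered samples were handled together is not given in the labels.

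Genes higher at an unadjusted p under 0.05 numbered 629 with median-ratio scaling, 571 with quantile normalization and 1017 without untreated replicates 1 and 2. Lower genes numbered 569 and 658 with these scalings, 251 without Bc1 in the total, 267 without a filter and 42 at 5 TPM. Scaled higher genes numbered 1110 without a filter and 416 at 5 TPM. Non-overlapping genes above numbered 39 and 33 with the scalings, 263 without untreated replicates 1 and 6 and 213 without 1 and 2. Those below numbered 48 and 55, 17 without Bc1, 5 without a filter, 1 at 5 TPM, 1 with 12 libraries only, and 14 and 25 with the pairs left out. Without a filter 35907 genes lay within 2-fold and 29924 within 1.5-fold. Genes under the unadjusted threshold against vindeburnol numbered 1254 without a filter, 297 at 5 TPM and 1100 with library weights. Mbp reversed to -0.016 with median-ratio scaling. Th reversed to -0.094 with covariates, -0.065 without untreated replicates 1 and 6 and -0.12 without 1 and 2, and Slc6a3 to -0.057 and -0.072. The causes were not tested.

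Leaving out each library in turn gave 0 to 1 calls in both scalings, 973 (without untreated replicate 4) to 2172 (without VB-127 replicate 2) higher genes and 58 to 122 lower ones, with 495 to 804 and 455 to 714 after scaling. It gave 123 to 328 non-overlapping genes above and 3 to 16 below, and a difference of -0.040 (without untreated replicate 1) to 0.55 for Th. The differences between groups ranged from -5.04 to -1.34 percentage points for the Bc1 share, -0.895 to 0.344 percentage points for the mitochondrial share, 253 to 446 for genes at 1 TPM or more, -4.34 to -2.07 points for the share of the 100 highest genes, 0.0492 to 0.112 for the scale factor and 75.8 to 134 scaled TPM for the summed TEC and sense-intronic level. Depth is unknown, so the counting error of values near 1 TPM could not be given.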

Other observations

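Gm55043, an RNA with a predicted name chosen here after its values were seen, was listed at 0 in all 6 untreated libraries and at 4.02, 4.93, 7.19, 4.29, 11.1 and 3.11 TPM in the 6 VB-127 libraries. In the vindeburnol libraries it was listed at 9.19 and 19.8 TPM in replicates 1 and 2 and at 0 in the other 3. The limma adjusted p was 0.454 at TPM with all 17 libraries and 3.49e-05 with the 12 VB-127 and untreated libraries alone, where the spread among vindeburnol libraries does not enter. A 0 in these files can be a failed estimate. Gm49376, annotated as an unprocessed pseudogene, went the other way. It was listed at 0 in 5 of 6 VB-127 libraries and at 0.813 to 3.83 TPM in all 6 untreated ones, with the vindeburnol libraries at 0 to 2.04 TPM.

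Rn7s1 and Rn7s2 are near-identical genes of the 7SL RNA, the scaffold of the signal recognition particle, and reads can be split between them. Rn7s1 was listed at 0 in untreated replicates 1, 3, 5 and 6, where Rn7s2 read 165, 111, 84.3 and 150 TPM, and at 117 to 405 TPM in all VB-127 libraries. The sum of both ranged from 155 to 446 TPM with VB-127 and from 84.3 to 306 TPM without it, so the groups overlapped. The fitted difference of Rn7s1 alone, 5.36 log2 at TPM (limma, adjusted p = 0.470), is therefore uncertain. In vindeburnol replicate 4 the sum was 9274 TPM.

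Gm13563, an antisense RNA by annotation, read 1.74 to 4.01 TPM with VB-127 and 0.261 to 1.79 TPM without it. The limma adjusted p was 0.363 at TPM and 0.0476 with library weights.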
